A study of Homo sapiens with 6 samples.

Results

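The data are total RNA counts for 8 rows of a repeat count table: the ribosomal RNA rows LSU-rRNA_Hsa, SSU-rRNA_Hsa and 5S, and the nucleolar RNA rows U3, U8, U13, U14 and U17. The rows were picked by their names out of 15600 rows, by a rule that uses no measured value, though with earlier results of these data known. Each row sums the counts of all genomic copies that carry its name, so a value is not the level of a single gene. The 6 libraries come from H9, a widely used human embryonic stem cell line, with 2 libraries in each of 3 groups. RSeT+DT cells were kept in RSeT, a commercial medium for a naive-like state, and exposed for 48 hours to DZNep at 10 nM together with TSA at 5 nM. RSeT cells were kept in that medium without the 2 agents, and the labels name no vehicle. Primed cells grew in mTeSR medium. DZNep lowers the Polycomb enzyme EZH2 and its mark H3K27me3 through inhibition of S-adenosylhomocysteine hydrolase, and TSA inhibits histone deacetylases. They were given together, so their effects cannot be told apart here. The series title names nucleolar organisation among its subjects.

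Ribosomes are assembled in the nucleolus. RNA polymerase I transcribes a long precursor that is cut into the RNA of the small subunit (18S) and the main RNAs of the large subunit (28S and 5.8S), while RNA polymerase III makes 5S RNA from a separate gene array outside the nucleolus. Small nucleolar RNAs guide the cuts and the chemical modifications of ribosomal RNA. U3 binds the precursor and is needed for the early cuts that release 18S RNA, U8 is needed to mature 28S and 5.8S RNA, and U13 guides acetylation of 18S RNA. U14 acts on 18S RNA, both as a methylation guide and, as shown in yeast, in its processing, and U17 is needed for cleavage on the path to 18S RNA.

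Which genomic copies the small rows sum is not given in the sources used here. The sequences below are examples of annotated RNAs of the kinds that 3 of these rows are named for. They are transcripts of GENCODE release 29 (GRCh38, the build named in the submitters' processing notes), 1 example gene a row, 5′ to 3′ as DNA letters. Capitals mark motif letters found by a search of the RNA strand: the first TGATGA (core of box C) and the last CTGA (box D) in the C/D RNAs, and ACA exactly 3 bases before the end in the H/ACA RNA.
SNORD3A (row U3): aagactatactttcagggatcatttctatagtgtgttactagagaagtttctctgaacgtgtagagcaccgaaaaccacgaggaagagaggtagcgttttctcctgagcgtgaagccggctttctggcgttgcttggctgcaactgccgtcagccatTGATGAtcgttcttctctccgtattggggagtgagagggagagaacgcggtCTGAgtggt
SNORD14A (row U14): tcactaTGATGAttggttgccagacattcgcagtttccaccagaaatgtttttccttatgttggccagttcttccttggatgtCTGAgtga
SNORA73A (row U17): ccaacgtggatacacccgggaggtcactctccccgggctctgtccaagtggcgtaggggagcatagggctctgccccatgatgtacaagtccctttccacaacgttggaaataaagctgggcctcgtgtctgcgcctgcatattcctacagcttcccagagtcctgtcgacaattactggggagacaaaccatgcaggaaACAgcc

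SNORD3A lies at chr17:19188016-19188232 (plus strand). SNORD118 lies at chr17:8173454-8173587 (minus strand), overlapping an annotated exon and untranslated region of TMEM107 on the same strand, and its sequence is not printed. SNORD14A lies at chr11:17074654-17074744 (minus strand) in an intron of the ribosomal protein gene RPS13. SNORA73A lies at chr1:28507366-28507571 (plus strand), within an intron of RCC1 and overlapping an exon of SNHG3. Reads of these host transcripts could also fall in the rows. Of 955 snoRNA transcripts in the same annotation, 36.0% hold TGATGA, 71.2% hold CTGA, 32.0% hold both in that order and 29.4% have ACA at that place. Among the 217-base copies, SNORD3B-1, SNORD3B-2 and SNORD3C each differ from SNORD3A at 1 position and SNORD3D at 3. The U14 copies are more diverse: SNORD14A to SNORD14E share a longest run of only 13 bases (cttccttggatgt), just before box D in SNORD14A.

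Counts over all repeat rows summed to between 11520770 and 38312112 a library, with RSeT replicate 1 the deepest. The labels name a stranded total RNA kit and do not say whether ribosomal RNA was removed before sequencing, so the ribosomal rows need not give the ribosomal RNA content of the cells. Levels are the deposited CPM, which are shares of the summed counts of the 7383 rows in that table, so fewer cells of a type and less RNA per cell cannot be told apart. Of the rows listed as a check of cell type, the pluripotency-linked HERVH-int, LTR7 and LTR7Y summed to between 129696 and 133930 CPM in RSeT+DT, 82921 and 85336 CPM in RSeT and 27179 and 30126 CPM in primed libraries. The trophoblast-linked LTR17, HERV17-int and LTR10A summed to between 1064 and 1102 CPM in RSeT+DT, 999.3 and 1003 CPM in RSeT and 558.2 and 579.9 CPM in primed libraries, with none at 0. In the edgeR tests described below, 2 of 3 were called higher and 1 lower in each comparison. By CPM, however, HERV17-int was lower in RSeT+DT (483.3 and 481.9 CPM) than in RSeT (498.7 and 494.6 CPM). The part of this in the results below was not tested.

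All 8 rows passed the filter on low counts, among 4665 rows tested with edgeR's quasi-likelihood test on TMM-scaled counts, with Benjamini-Hochberg adjustment over all rows at 0.05. With the 2 agents, 6 rows rose against RSeT, 1 fell and 1 did not pass. Of all tested rows 42.4% were called in that comparison, 25% as higher and 17.4% as lower. Between RSeT and primed cells 3 rows rose, 1 fell and 4 did not pass, while 46.6% of all rows were called, 22.8% as higher and 23.8% as lower. Between RSeT+DT and primed cells 5 rows rose and 3 did not pass, while 45.8% of all rows were called, 25.1% as higher and 20.6% as lower. Called rows were thus common in the whole table, and the count for RSeT against primed is near that background. The CPM of the groups did not overlap for 7 of the 8 rows in RSeT+DT against RSeT (70.8% of all tested rows), 4 in RSeT against primed (73.7%) and 6 in RSeT+DT against primed (74.7%). The comparisons share libraries, so they are not independent of each other. The median log2 fold change of the 8 rows was 0.50 in RSeT+DT against RSeT, 0.11 in RSeT against primed and 0.80 in RSeT+DT against primed, and 0.03, -0.03 and -0.01 over all tested rows.

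Each result was computed again under 18 alternatives, which are other scalings, filters, tests and each library left out in turn. Library totals are CPM scaling without TMM, and interspersed scaling uses only rows other than ribosomal, small, transfer RNA and simple repeats. The libraries of a group differed widely for LSU-rRNA_Hsa, SSU-rRNA_Hsa and U3. With edgeR's robust setting, which lets such rows keep more of their own spread, only U8, U13 and U14 were called in RSeT+DT against RSeT, and DESeq2 called the same 3 rows.

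**Figure D1:**
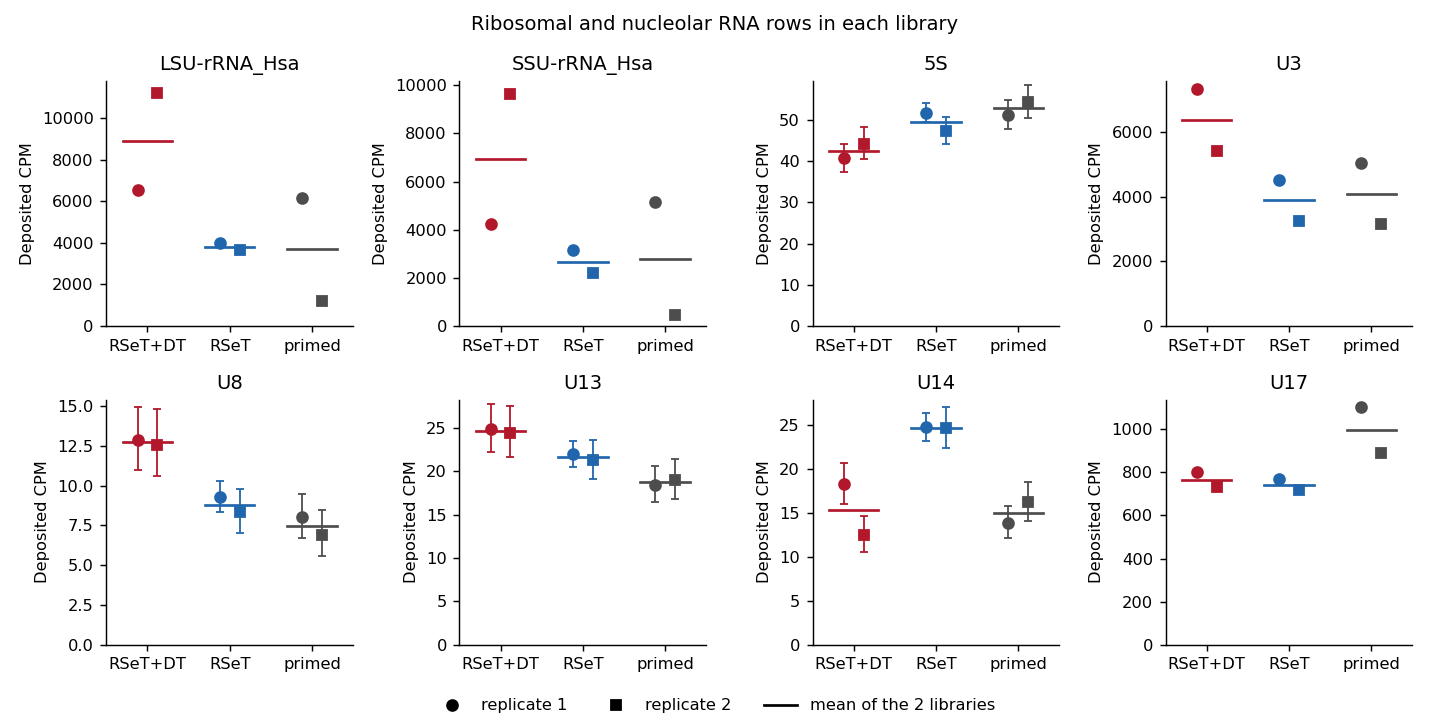
Deposited CPM (y axis, from 0) of each of the 8 rows in RSeT+DT, RSeT and primed libraries (x axis). Points are libraries with exact 95% Poisson intervals, which cover counting error only and are narrower than the symbol for the abundant rows, and lines are means of 2. LSU-rRNA_Hsa lies at 6559 and 11213 CPM in RSeT+DT, 4005 and 3637 CPM in RSeT and 6177 and 1203 CPM in primed cells, whereas the 2 libraries of a group lie close together for U8 and U13.

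LSU-rRNA_Hsa, the row of the large subunit RNA, had 6559 and 11213 CPM in RSeT+DT libraries, 4005 and 3637 CPM in RSeT libraries and 6177 and 1203 CPM in primed libraries. Both RSeT+DT libraries were above both RSeT libraries, but primed replicate 1 came close to the lower RSeT+DT library. The log2 fold change in RSeT+DT against RSeT was 1.36 (SE 0.35, 95% interval 0.64 to 2.08; adjusted p = 0.00249, edgeR). This SE pools the spread of all 3 groups, the primed libraries included. A fit of only the 2 groups compared gave 1.35 with an SE of 0.12. Of 18 alternatives 15 kept the call. The call was lost with the robust setting (adjusted p = 0.372), in DESeq2 (adjusted p = 0.202) and without RSeT replicate 2 (adjusted p = 0.0831, edgeR), with log2 fold changes of 1.36, 1.32 and 1.29. RSeT against primed was undecided, at 0.16 with a 95% interval from -0.55 to 0.87, since the value was -0.58 without primed replicate 2 and 1.83 without primed replicate 1. RSeT+DT against primed gave 1.53 (SE 0.35; adjusted p = 0.000857, edgeR), but 0.78 without primed replicate 2 and 3.20 without primed replicate 1, and the call was lost with the robust setting (adjusted p = 0.314) and in DESeq2 (adjusted p = 0.167).

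SSU-rRNA_Hsa, the row of the small subunit RNA, spread even more. It had 4225 and 9654 CPM in RSeT+DT libraries, 3145 and 2211 CPM in RSeT libraries and 5134 and 465.3 CPM in primed libraries. The RSeT+DT libraries were again above the RSeT libraries, while primed replicate 1 lay between the RSeT+DT libraries. The log2 fold change in RSeT+DT against RSeT was 1.52 (SE 0.50, 95% interval 0.49 to 2.54; adjusted p = 0.0156, edgeR), and 7 of 18 alternatives lost the call, among them the robust setting (adjusted p = 0.477), DESeq2 (adjusted p = 0.277), limma on log2 CPM plus 1 (1.28, adjusted p = 0.0681) or plus 0.1 (1.28, adjusted p = 0.0916) and, in edgeR, the fits without RSeT+DT replicate 2 (0.85, adjusted p = 0.123), RSeT replicate 1 (1.81, adjusted p = 0.0743) or RSeT replicate 2 (1.28, adjusted p = 0.228). RSeT against primed stood at 0.04 with a 95% interval from -0.96 to 1.05, and at -0.83 without primed replicate 2 and 2.69 without primed replicate 1. RSeT+DT against primed gave 1.56 (SE 0.50; adjusted p = 0.0120, edgeR), with 0.69 and 4.21 without those 2 libraries in the same order. There the robust setting (adjusted p = 0.455), DESeq2 (adjusted p = 0.294), a fit of only the 2 groups (1.57, adjusted p = 0.0705, edgeR) and the fit without RSeT+DT replicate 2 (0.91, adjusted p = 0.0875, edgeR) lost the call.

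The spread of the 2 subunit rows between libraries of a group was among the widest in the whole table. Among 2942 rows with a mean count of at least 50, SSU-rRNA_Hsa and LSU-rRNA_Hsa had the largest and second largest difference between the primed libraries, 11.03-fold and 5.14-fold. The median difference over these rows was 0.09 on the log2 scale in primed cells, against 3.46 and 2.36 for the 2 subunit rows. SSU-rRNA_Hsa ranked 8 in RSeT+DT with a 2.29-fold and 68 in RSeT with a 1.42-fold difference. LSU-rRNA_Hsa ranked 50 in RSeT+DT with a 1.71-fold difference and 877 in RSeT with a 1.10-fold one.

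**Figure D2:**
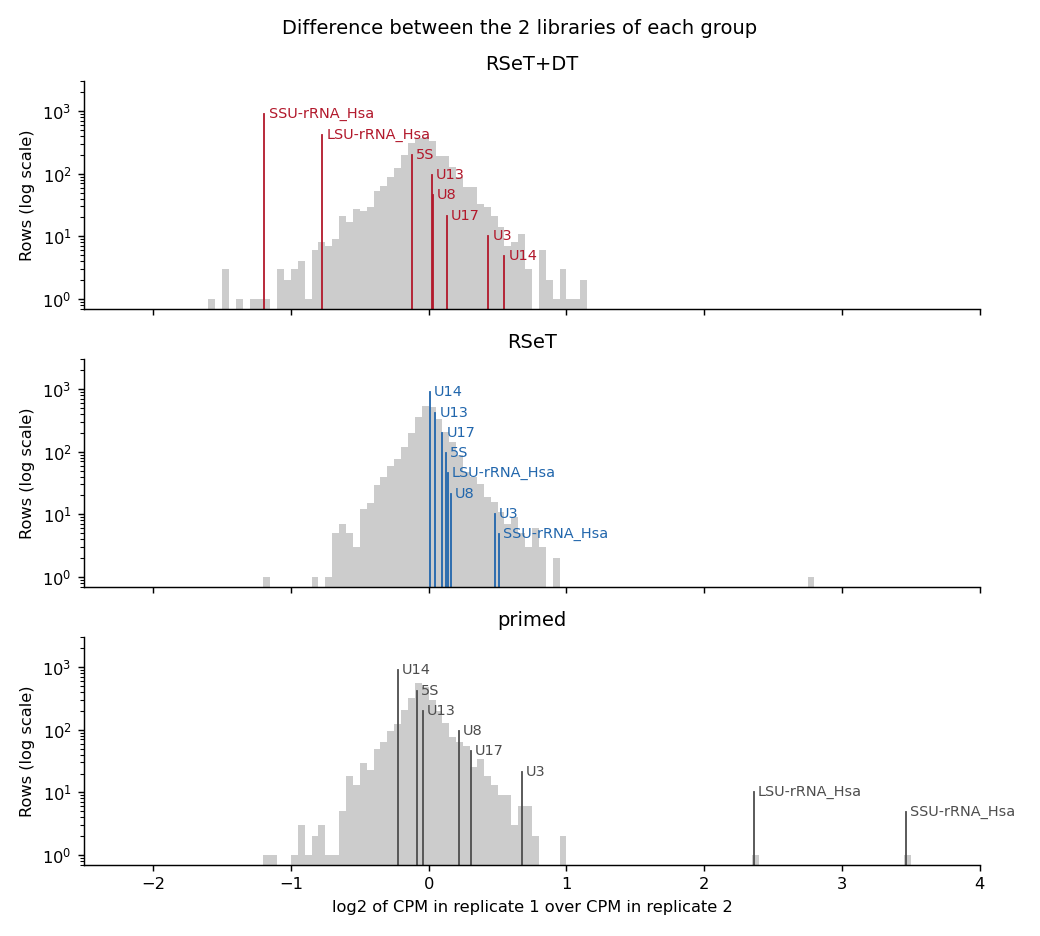
Histograms (log y axis) of the log2 ratio of CPM in replicate 1 over replicate 2 for 2942 rows with a mean count of at least 50, a panel a group, with a line at each of the 8 rows, whose height has no meaning. In primed cells LSU-rRNA_Hsa at 2.36 and SSU-rRNA_Hsa at 3.46 lie far outside the other rows, and in RSeT+DT they lie on the other side, at -0.77 and -1.19.

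Within a library the subunit rows moved together, and their ratio did as well. Counts of SSU-rRNA_Hsa per count of LSU-rRNA_Hsa were 0.644 and 0.861 in RSeT+DT, 0.785 and 0.608 in RSeT and 0.831 and 0.387 in primed libraries. In all 3 groups the library with the larger ribosomal share also had the larger ratio. The 2 are not independent, since the subunit rows made up 96.8% to 99.8% of the ribosomal counts of a library. Both rows differed the same way within each group and SSU-rRNA_Hsa differed more, so the ratio had to rise with the share. The 3 ribosomal rows together took 1.08% and 2.09% of repeat counts in RSeT+DT, 0.720% and 0.589% in RSeT and 1.14% and 0.172% in primed libraries. The exact two-sided permutation test for this share gave p = 0.333 for RSeT+DT against RSeT, the smallest that 2 against 2 libraries allow, p = 1 for RSeT against primed and p = 0.667 for RSeT+DT against primed. For the ratio the exact two-sided permutation p was 0.667 for RSeT+DT against RSeT, 1 for RSeT against primed and 0.667 for RSeT+DT against primed.

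**Figure D3:**
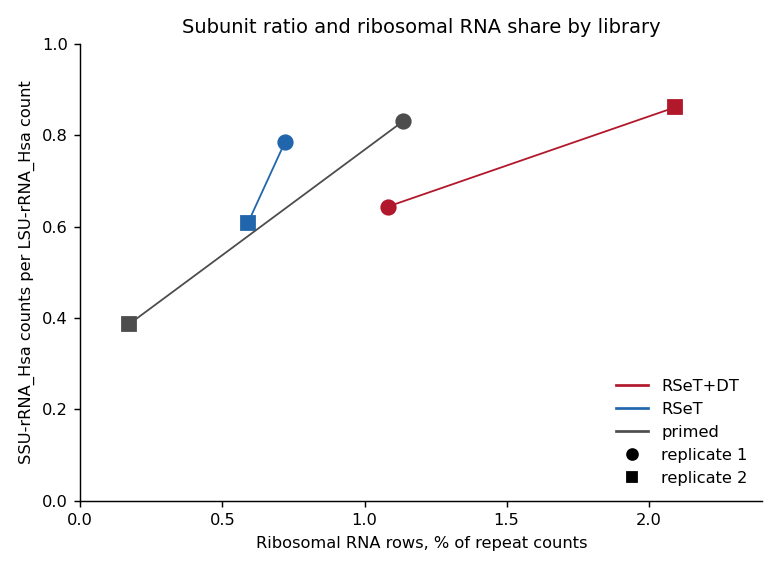
Counts of SSU-rRNA_Hsa per count of LSU-rRNA_Hsa (y axis) against the share of repeat counts in the 3 ribosomal RNA rows (x axis, percent), with a line joining the 2 libraries of a group. In each group the line climbs to the right, from 0.387 to 0.831 between the primed libraries, and the groups overlap on the y axis. The subunit rows make up nearly all of the share, so the axes are not independent.

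5S, the row named for the RNA that RNA polymerase III supplies to the large subunit, kept apart from the subunit rows. The row sums all copies of that name, so it need not give the ribosomal 5S RNA alone. It had 40.6 and 44.2 CPM in RSeT+DT libraries, 51.7 and 47.4 CPM in RSeT libraries and 51.2 and 54.3 CPM in primed libraries. By CPM the RSeT+DT libraries were below all others, while RSeT and primed libraries overlapped. With TMM scaling no comparison passed, at log2 fold changes of -0.08 (95% interval -0.22 to 0.06) in RSeT+DT against RSeT, 0.05 (-0.08 to 0.18) in RSeT against primed and -0.03 (-0.18 to 0.12) in RSeT+DT against primed. Library totals without TMM gave calls for -0.23 in RSeT+DT against RSeT (adjusted p = 0.0122, edgeR) and -0.31 in RSeT+DT against primed (adjusted p = 0.00116, edgeR), as did limma on log2 CPM, whereas scaling by interspersed repeats gave 0.14 and 0.03 with no call. The widest difference between the 2 libraries of a group was 1.09-fold. Counts of LSU-rRNA_Hsa per count of 5S were 161.4 and 253.8 in RSeT+DT, 77.5 and 76.8 in RSeT and 120.7 and 22.1 in primed libraries.

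U3, the RNA of the early cuts toward 18S, had 7321 and 5420 CPM in RSeT+DT libraries, 4531 and 3245 CPM in RSeT libraries and 5038 and 3151 CPM in primed libraries. Both RSeT+DT libraries were above all others, and RSeT and primed libraries overlapped. The log2 fold change was 0.87 (SE 0.15, 95% interval 0.57 to 1.17; adjusted p = 2.59e-05, edgeR) in RSeT+DT against RSeT and 0.92 (SE 0.15; adjusted p = 1.26e-05, edgeR) in RSeT+DT against primed. These calls were lost with the robust setting (adjusted p = 0.202 and 0.174) and in DESeq2 (adjusted p = 0.0795 and 0.0652), and held in the other 16 alternatives of each. Among those 16, the fit with no filter gave an SE of only 0.033 in both comparisons. Without primed replicate 2 the value against primed was 0.61. RSeT against primed gave 0.05 with a 95% interval from -0.25 to 0.35, and -0.26 without primed replicate 2 and 0.47 without primed replicate 1. Replicate 1 was the higher library in all 3 groups, by 1.35-fold in RSeT+DT, 1.40-fold in RSeT and 1.60-fold in primed cells, and it was also the higher one for U8 and U17 and for the spliceosomal RNAs U1, U2, U4 and U5. For the spliceosomal U6 replicate 2 was the higher in all 3 groups, and for U13, U14 and the histone-processing U7 the higher replicate differed between groups. In RSeT+DT replicate 1 was the library with less LSU-rRNA_Hsa and SSU-rRNA_Hsa, and in the other 2 groups the library with more. U3 made up 77.1% to 89.5% of the counts of the 5 nucleolar RNA rows. Together these rows took 0.818% and 0.620% of repeat counts in RSeT+DT, 0.536% and 0.402% in RSeT and 0.618% and 0.408% in primed libraries. The exact two-sided permutation test for this share gave p = 0.333 for RSeT+DT against RSeT, p = 0.667 for RSeT against primed and p = 0.333 for RSeT+DT against primed.

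U8, the RNA of 28S and 5.8S maturation, rose in RSeT+DT against both other groups under every alternative run. It had 12.9 and 12.6 CPM in RSeT+DT libraries, 9.29 and 8.32 CPM in RSeT libraries and 8.02 and 6.90 CPM in primed libraries, and no 2 groups overlapped. These rest on 94 to 356 counts a library, so the exact 95% Poisson interval ran from 10.6 to 14.8 CPM in RSeT+DT replicate 2, from 7.01 to 9.80 CPM in RSeT replicate 2 and from 5.57 to 8.44 CPM in primed replicate 2. The log2 fold change was 0.67 (SE 0.14, 95% interval 0.38 to 0.95; adjusted p = 0.000304, edgeR) in RSeT+DT against RSeT and 1.05 (SE 0.15; adjusted p = 3.31e-06, edgeR) in RSeT+DT against primed, and all 18 alternatives kept both calls. RSeT against primed gave 0.38 (SE 0.15; adjusted p = 0.0352, edgeR). That call was lost in 8 of 18 alternatives, among them DESeq2 (0.40, adjusted p = 0.117), library totals (0.25, adjusted p = 0.159, edgeR), interspersed scaling (0.22, adjusted p = 0.224, edgeR), thinning of RSeT replicate 1 to the depth of replicate 2 (0.35, adjusted p = 0.0630, edgeR), limma on log2 CPM plus 1 (0.21, adjusted p = 0.188) or plus 0.1 (0.24, adjusted p = 0.172) and the edgeR fits without RSeT replicate 1 (0.28, adjusted p = 0.279) or primed replicate 2 (0.26, adjusted p = 0.266).

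The row U13, named like the guide of 18S acetylation, showed the same order of groups. Its libraries differed by at most 1.03-fold within a group. It had 24.9 and 24.5 CPM in RSeT+DT libraries, 22.0 and 21.3 CPM in RSeT libraries and 18.5 and 19.0 CPM in primed libraries, without overlap. Means were 24.7 ± 0.28, 21.6 ± 0.50 and 18.7 ± 0.38 CPM (SD, n = 2 each). The log2 fold change was 0.34 (SE 0.095, 95% interval 0.14 to 0.53; adjusted p = 0.00498, edgeR) in RSeT+DT against RSeT, 0.34 (SE 0.095; adjusted p = 0.00429, edgeR) in RSeT against primed and 0.68 (SE 0.10; adjusted p = 4.89e-06, edgeR) in RSeT+DT against primed. The last call held in all 18 alternatives, at 0.40 with library totals. Interspersed scaling gave 0.56 in RSeT+DT against RSeT. The RSeT+DT against RSeT call was lost with library totals (0.19, adjusted p = 0.123, edgeR), in limma on log2 CPM plus 1 (0.18, adjusted p = 0.115) or plus 0.1 (0.19, adjusted p = 0.110) and without RSeT+DT replicate 1 (0.31, adjusted p = 0.0501, edgeR). The RSeT against primed call was lost with library totals (0.21, adjusted p = 0.0701, edgeR), interspersed scaling (0.18, adjusted p = 0.113, edgeR), limma on log2 CPM plus 1 (0.20, adjusted p = 0.0789) or plus 0.1 (0.21, adjusted p = 0.0775) and without RSeT replicate 1 (0.31, adjusted p = 0.0603, edgeR).

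A separate row, U13_, had its lowest values in RSeT+DT. It had 19.4 and 22.1 CPM in RSeT+DT libraries, 31.9 and 31.3 CPM in RSeT libraries and 32.1 and 31.1 CPM in primed libraries. It fell in RSeT+DT against RSeT, with a log2 fold change of -0.46 (SE 0.091; adjusted p = 0.000195, edgeR), and in RSeT+DT against primed (-0.32, SE 0.095; adjusted p = 0.00693, edgeR). The annotation that separates the 2 names is not given in the sources used here, and reads could be shared between them. Which of the 2 rows holds the acetylation guide is therefore not known here.

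U14, which acts on 18S RNA, was highest in RSeT. It had 18.3 and 12.5 CPM in RSeT+DT libraries, 24.8 and 24.7 CPM in RSeT libraries and 13.9 and 16.2 CPM in primed libraries. The RSeT libraries were above all others, and RSeT+DT and primed libraries overlapped. In RSeT against primed the log2 fold change was 0.86 (SE 0.12, 95% interval 0.60 to 1.11; adjusted p = 2.36e-06, edgeR), a call that all 18 alternatives kept. In RSeT+DT against RSeT U14 fell, with a log2 fold change of -0.52 (SE 0.13, 95% interval -0.78 to -0.26; adjusted p = 0.00170, edgeR), but the 2 RSeT+DT libraries differed by 1.46-fold, and the value was -0.25 without replicate 2 (adjusted p = 0.132, edgeR) and -0.85 without replicate 1. The call was also lost under interspersed scaling (-0.30, adjusted p = 0.0803, edgeR). RSeT+DT against primed stood at 0.34 (95% interval 0.04 to 0.63; adjusted p = 0.0559, edgeR), and 4 of 18 alternatives made a call: the robust setting (adjusted p = 0.0317), interspersed scaling (0.40) and the fits without RSeT+DT replicate 2 (0.63) or primed replicate 2 (0.43). The value was 0.01 without RSeT+DT replicate 1 (adjusted p = 0.971, edgeR), 0.05 with library totals and 0.01 in both limma fits.

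U17, the H/ACA RNA of 18S maturation, was lower in RSeT than in primed cells. It had 802.0 and 731.3 CPM in RSeT+DT libraries, 768.5 and 716.9 CPM in RSeT libraries and 1103 and 891.5 CPM in primed libraries. Both primed libraries were above all others, while RSeT+DT and RSeT libraries overlapped. In RSeT against primed the log2 fold change was -0.30 (SE 0.074; adjusted p = 0.00181, edgeR). That call was lost with the robust setting (adjusted p = 0.261), in DESeq2 (-0.27, adjusted p = 0.230), without RSeT replicate 2 (-0.22, adjusted p = 0.110, edgeR) and without primed replicate 1 (-0.10, adjusted p = 0.193, edgeR), and the value was -0.46 without primed replicate 2 or with interspersed scaling. In RSeT+DT against RSeT the value was 0.20 (SE 0.074; adjusted p = 0.0304, edgeR), but 10 of 18 alternatives lost this call, among them library totals at 0.05, while interspersed scaling gave 0.42. RSeT+DT against primed stood at -0.10 (95% interval -0.25 to 0.06), and 5 of 18 alternatives made a call, among them library totals at -0.38 (adjusted p = 7.63e-05, edgeR).

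**Figure D4:**
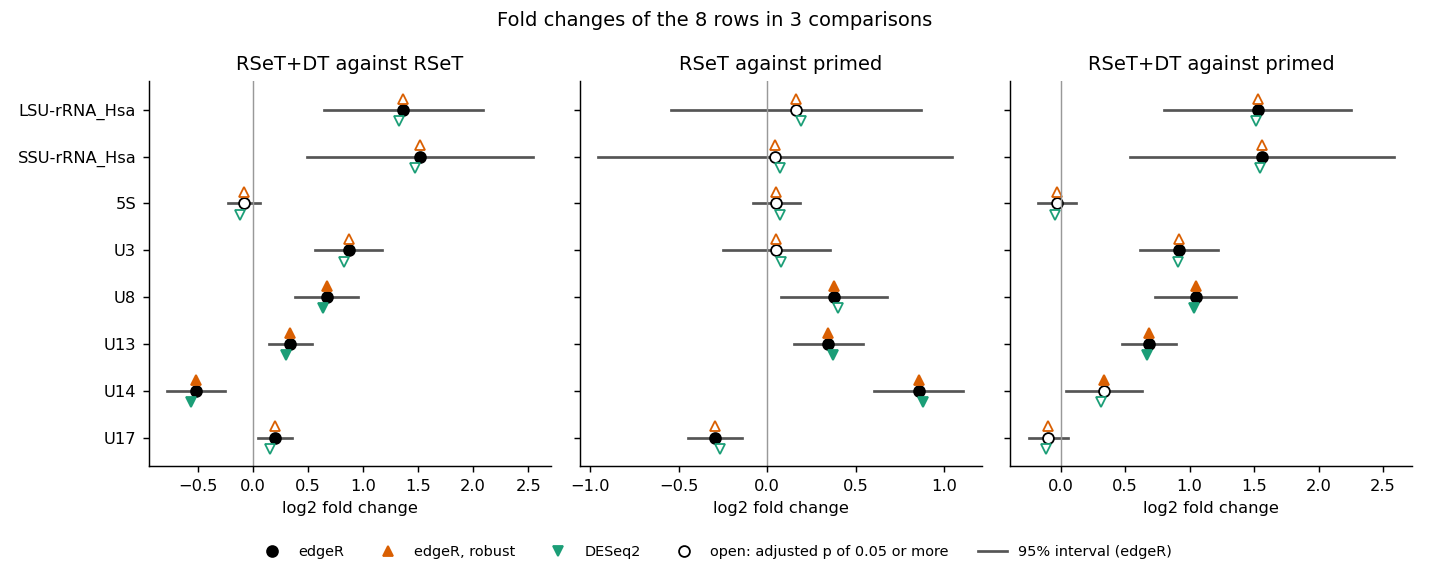
Log2 fold changes (x axis) of the 8 rows (y axis) in the 3 comparisons. Circles are edgeR with 95% intervals, up triangles edgeR's robust setting and down triangles DESeq2, with open symbols for an adjusted p of 0.05 or more. In RSeT+DT against RSeT all 3 tests call U8, U13 and U14, at 0.67, 0.34 and -0.52 in edgeR, while LSU-rRNA_Hsa and SSU-rRNA_Hsa have the largest values and the widest intervals.

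The order of the groups differed between the RNAs. U8 and U13 ran in the order RSeT+DT, RSeT, primed from high to low with no overlap of libraries. The separate row U13_ was instead lowest in RSeT+DT. U14 was highest in RSeT, U17 was highest in primed cells, and LSU-rRNA_Hsa and U3 were highest in RSeT+DT. SSU-rRNA_Hsa was highest in RSeT+DT by its mean only, 6939 ± 3839 CPM against 2678 ± 661 CPM in RSeT and 2800 ± 3301 CPM in primed cells (SD, n = 2 each). For LSU-rRNA_Hsa, SSU-rRNA_Hsa, 5S and U3 the neighbours RSeT and primed overlapped.

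**Figure D5:**
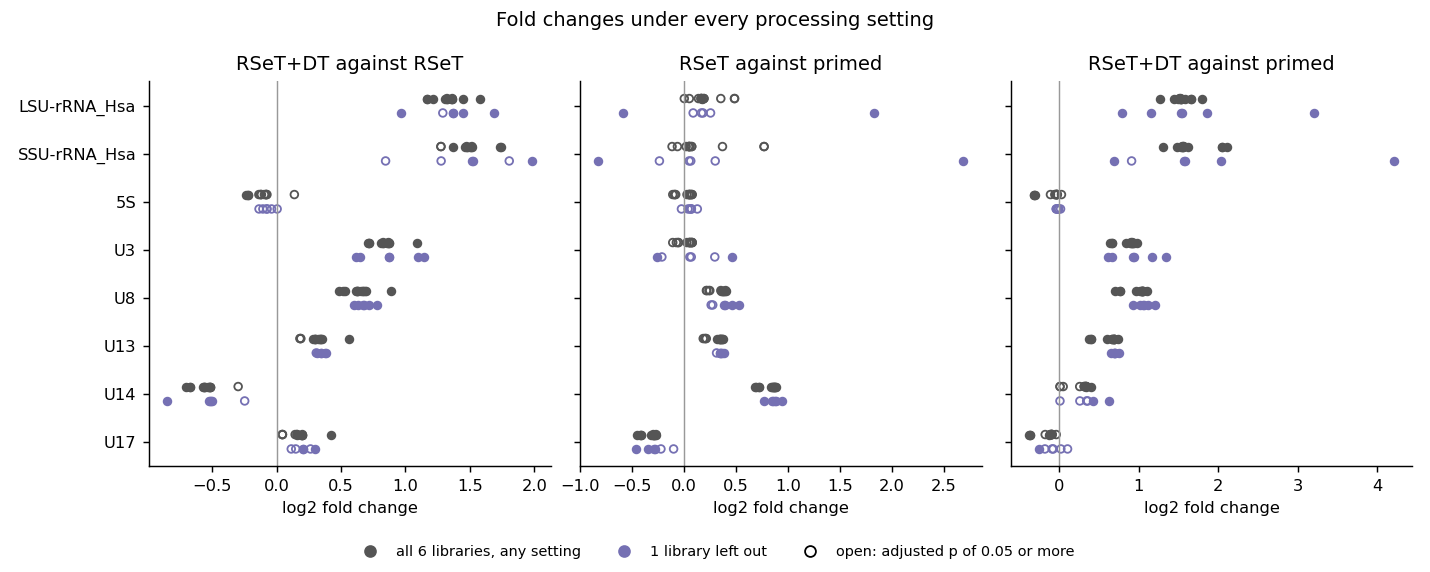
Log2 fold changes (x axis) of the 8 rows (y axis) in the 3 comparisons under 19 settings, grey for settings with all 6 libraries and violet for fits without 1 library, with open symbols for an adjusted p of 0.05 or more. U8 is called in all settings in both RSeT+DT comparisons, and the values of LSU-rRNA_Hsa and SSU-rRNA_Hsa in RSeT against primed run from -0.58 to 1.83 and from -0.83 to 2.69.

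Likeness was measured as the root mean square difference of log2 CPM over the 6 libraries after centring each row. LSU-rRNA_Hsa was closest to SSU-rRNA_Hsa, at 0.39, and the closest rows outside the 8, out of 1131, were the DNA transposon Charlie21a (0.78), LTR22B2 (0.78) and UCON5 (0.78). Even Charlie21a was not a close match, with 92.1 and 95.5 CPM in the primed libraries, where LSU-rRNA_Hsa had 6177 and 1203 CPM. U3 was closest to U8 among the 8, at 0.23, and outside them to LTR6A (0.27), Eulor2A (0.29) and UCON27 (0.30). 5S was closest to LTR27E and MER41A (both 0.03) and MamSINE1 (0.04), against 0.20 for its nearest row among the 8, U17.

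RNAs of other machinery differed in their direction. For scale, 42.4% of all tested rows were called in RSeT+DT against RSeT, 25% as higher and 17.4% as lower. In RSeT against primed 46.6% of all tested rows were called, 22.8% as higher and 23.8% as lower. Of the snRNAs U1, U2, U4, U5, U6 and U7, 3 were called higher and 2 lower in RSeT+DT against RSeT, and 1 higher and 4 lower in RSeT against primed. U1, which recognises 5′ splice sites, had 7888 and 6663 CPM in RSeT+DT, 5651 and 4959 CPM in RSeT and 9848 and 7571 CPM in primed libraries. Its log2 fold change was 0.61 in RSeT+DT against RSeT (adjusted p = 1.76e-06, edgeR) and -0.59 in RSeT against primed (adjusted p = 3.07e-06, edgeR). Rows of 7SK, 7SLRNA, BC200, the Y RNAs and all tRNA names were tested for 63 of 72 names. Some tRNA names are marked (m), so the rows need not all be RNA polymerase III products. Of the tested rows 6 were called higher and 17 lower in RSeT+DT against RSeT. Those higher include tRNA-Ser-TCA(m) at 0.36 and tRNA-Leu-TTA(m) at 0.72. In RSeT against primed 39 of the tested rows were called higher and 6 lower. The 2 most abundant of them went against these counts. 7SLRNA, the scaffold of the particle that targets nascent secretory proteins, had 212616 and 191692 CPM in RSeT+DT, 147245 and 141036 CPM in RSeT and 221134 and 205322 CPM in primed libraries, with log2 fold changes of 0.64 in RSeT+DT against RSeT (adjusted p = 3.49e-12, edgeR) and -0.43 in RSeT against primed (adjusted p = 1.36e-09, edgeR). For 7SK, which holds the elongation factor P-TEFb inactive, the log2 fold changes were 0.70 (adjusted p = 6.19e-16, edgeR) and -0.41 (adjusted p = 4.48e-12, edgeR). Of 5 satellite rows listed for the acrocentric short arms, where the ribosomal gene arrays lie, 4 were called lower in RSeT+DT against RSeT and 3 higher in RSeT against primed. Each row sums all copies of its name, wherever they lie, so these counts do not single out the short arms. ALR/Alpha, the alpha satellite of centromeres, had 8430 and 7843 CPM in RSeT+DT, 32356 and 32556 CPM in RSeT and 523.6 and 548.8 CPM in primed libraries. Its log2 fold change was -1.84 in RSeT+DT against RSeT (adjusted p = 1.79e-23, edgeR) and 6.05 in RSeT against primed (adjusted p = 1.71e-34, edgeR). ACRO1 stood at -1.11 (adjusted p = 8.51e-10, edgeR) and 6.05 (adjusted p = 1.96e-20, edgeR) in the same 2 comparisons, and the less abundant HSATI was also called lower and higher in them. BSR/Beta, a beta satellite, had 471.9 and 473.7 CPM in RSeT+DT, 678.8 and 711.5 CPM in RSeT and 766.4 and 811.1 CPM in primed libraries. Its log2 fold change was -0.40 in RSeT+DT against RSeT (adjusted p = 5.51e-08, edgeR) and -0.05 in RSeT against primed (adjusted p = 0.375, edgeR).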

How the data were processed

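Total RNA of 6 H9 libraries was compared through 2 tables. One holds raw counts per repeat name, deposited by the authors. The other holds CPM, deposited by the authors for 7383 of the rows, and equals each count over the summed counts of those rows in its library within 0.00442. The submitters' processing notes name Trimmomatic 0.39, STAR 2.7.8a, featureCounts, Subread 2.14.2 and GRCh38. What each tool did, which repeat annotation was used, how reads with several places were counted and whether strand was used is not given in the sources used here.

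Counts were tested with edgeR 4.0.16 in R 4.3.3 (TMM, quasi-likelihood, group as the only term, all 6 libraries, filterByExpr with at least 10 counts and a total of 15, Benjamini-Hochberg over all rows). TMM factors ran from 0.888 to 1.12, so fold changes differ somewhat from ratios of CPM. Each SE is the fold change divided by the root of its F. No label states that replicates were separate cultures, so the p-values may reflect only technical spread. The test was checked on simulated counts in which every row followed the fitted trend of the spread. That check does not cover rows whose libraries differ far more widely, such as LSU-rRNA_Hsa, SSU-rRNA_Hsa and U3. Alternatives were RLE factors, library totals, scaling by rows other than ribosomal, small, transfer RNA and simple repeats (interspersed scaling), no filter, a mean count of at least 50, edgeR's robust setting, DESeq2 1.42.0, limma 3.58.1 on log2 CPM plus 1 or 0.1, a block for the replicate number, a fit of just the groups compared, RSeT replicate 1 thinned down to the depth of replicate 2, and each library left out. All 8 rows are named, with the 3 rows most like LSU-rRNA_Hsa, 5S and U3 (mean count at least 50, no simple repeats), and at most 5 rows of other lists. Rows and lists were chosen with earlier results of these data known. The U13 and 5S sequences are not reported here.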

Additional observations from a re-analysis of the deposited data

How the results depend on the processing

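Relative to TMM, library totals moved the median log2 fold change of all rows by -0.15 in RSeT+DT against RSeT, -0.13 in RSeT against primed and -0.29 in RSeT+DT against primed, and interspersed scaling by 0.22, -0.16 and 0.06, so changes below about this size depend on the scaling. Of the 8 rows, 7 were called in RSeT+DT against RSeT, but 3 with the robust setting, 3 in DESeq2 and 4 to 7 without 1 library. In RSeT against primed 4 were called, but 2 with library totals, interspersed scaling, DESeq2 and both limma fits, and 2 to 6 without 1 library. In RSeT+DT against primed 5 were called, but 3 with the robust setting, 2 in DESeq2 and 5 to 7 without 1 library. The cause of these differences was not tested. Where 1 library is left, it is assumed to vary like the other groups. The moderated quasi-dispersion was 12.5 for LSU-rRNA_Hsa and 25.9 for SSU-rRNA_Hsa, against raw values of 102.0 and 212.8 and a median raw value of 0.758 over all rows.

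Some values changed sign. 5S in RSeT+DT against RSeT stood at 0.14 with interspersed scaling and between -0.14 and 0.0045 without 1 library. In RSeT against primed, SSU-rRNA_Hsa stood at -0.064 with library totals, -0.12 with interspersed scaling and between -0.83 and 2.69 without 1 library, and LSU-rRNA_Hsa between -0.58 and 1.83 without 1 library. There LSU-rRNA_Hsa also passed with no filter on low counts, at 0.17 (adjusted p = 5.36e-07, edgeR). In that fit the SE was 0.032 for LSU-rRNA_Hsa, 0.033 for SSU-rRNA_Hsa and 0.033 for U3. The main fit gave 0.34, 0.49 and 0.15. Calls of these 3 rows with no filter thus do not reflect the spread between their libraries. In the same comparison 5S stood at -0.081 with library totals, -0.11 with interspersed scaling, -0.090 and -0.092 in limma on log2 CPM plus 1 and plus 0.1 and between -0.026 and 0.13 without 1 library. U3 stood at -0.075 with library totals, -0.11 with interspersed scaling, -0.055 in both limma fits and between -0.26 and 0.47 without 1 library. In RSeT+DT against primed, 5S stood at 0.029 with interspersed scaling and between -0.036 and 0.018 without 1 library, and U17 between -0.26 and 0.11. Per 100 counts of interspersed and other remaining rows, ribosomal counts averaged 2.52 in RSeT+DT and 0.909 in RSeT, against shares of repeat counts of 1.59% and 0.655%. The ratio of subunit counts ran from 0.644 to 0.861 in RSeT+DT, 0.608 to 0.785 in RSeT and 0.387 to 0.831 in primed cells when 1 library was left.

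Over 2942 rows, libraries with the same replicate number did not deviate together. Correlations were -0.0074 (RSeT+DT and RSeT), 0.084 (RSeT and primed) and -0.033 (RSeT+DT and primed). These values cover all the rows at once and do not show whether single rows deviate with the number. U3, U8 and U17 were higher in replicate 1 in all 3 groups. With the replicate block 7, 4 and 5 of the 8 rows were called in the 3 comparisons, as without it, and 1949, 2157 and 2127 of all rows, against 1978, 2174 and 2135. In RSeT+DT against RSeT the block lowered the SE of U3 from 0.147 to 0.044 and that of U17 from 0.074 to 0.052.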
